A study of Mus musculus with 109 samples.

Results

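The region described here is the stretch of mouse chromosome 8 from 114500001 to 120000000 (mm9), from the genes Adat1 and Cntnap4 through Wwox and Maf to 4933407C03Rik. It was chosen by position, as all HindIII sites of the deposited contact table inside these limits, which gave 1635 of the 39480 sites of chromosome 8 and of the 823352 sites of the whole table. The study used 4C-seq, in which DNA ligated to 1 chosen HindIII fragment, the bait, is amplified and sequenced, in C127 cells, a line from a mouse mammary tumour. Contacts were followed through early G1, which is the period in which the order of DNA replication is set. Baits are named by their position in Mb. The baits B26, B87, B7, B44 and B53 look at the region from 27.1 to 107.3 Mb away, and B118 lies inside it. Libraries of cells 2, 3 and 4 h after release from a 4 h nocodazole block (1 library of each per bait) were set against those of the first hour (30 min and 1 h after release, 2 libraries of each), and G0 libraries (5 days without serum, 2 libraries) against those of 2 to 4 h. Blocked mitotic cells and G2 cells (15 h after release) gave 1 library each, except that B87 and B118 had none labelled mitosis. All cultures were fixed with 1% formaldehyde for 10 min.

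A chromosome folds so that nearby stretches meet often and the chance of contact falls with distance. On top of this fall, gene-rich and gene-poor stretches tend to meet their own kind, and neighbouring stretches form contact domains with edges. These contacts are largely lost in mitotic chromosomes and form again as cells enter G1. In the region itself, Maf, a leucine zipper transcription factor gene, stands beside a long stretch without coding genes, and Wwox, a very large oxidoreductase gene, spans a common fragile site in human cells.

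The sequences shown here are what the measurements start from. The primer of B118 ends in the HindIII site (capitals) whose contacts it reads (chr8:118459309-118459328, plus strand), between genes and 227629 bp from the start of Maf.
B118 primer: cctcatacagctggAAGCTT

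The next sequences surround the 3 HindIII sites of the region (capitals) that headed the list of sites captured in the most libraries of the outside baits (ties broken by number of baits, then by reads), and were read from the mm9 plus strand. The third shared its count of 25 libraries with a site 1921478 bp from B118, 116537845. They lie at chr8:118429998-118430123, chr8:118477397-118477522 and chr8:118483616-118483741, all in the stretch between Maf and Dynlrb2 and no more than 29265 bp from B118.
Site 118430058: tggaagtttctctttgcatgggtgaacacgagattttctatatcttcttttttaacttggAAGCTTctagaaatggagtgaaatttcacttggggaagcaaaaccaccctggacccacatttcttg
Site 118477457: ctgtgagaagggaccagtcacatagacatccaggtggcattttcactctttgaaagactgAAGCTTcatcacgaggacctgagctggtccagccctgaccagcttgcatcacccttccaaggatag
Site 118483676: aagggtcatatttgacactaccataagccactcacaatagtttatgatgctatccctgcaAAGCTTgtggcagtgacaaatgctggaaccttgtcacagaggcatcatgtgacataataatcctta

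Total reads ran from 266006 to 12536212 per library (median 3153499), in 64 libraries of the 6 chromosome 8 baits. Libraries are called by their labels only, because some shared content across labels. Outside chromosome 8, between 64.9% and 96.7% of the sites of 1 h replicate 2 or of the first technical replicate of 2 h, whichever had fewer, were also in the other, at each of the 6 baits. This overlap was 5.48 to 25.3 times what chance gives, against a median of 2.07 times over all 374 pairs. The same 2 libraries shared more sites than usual with a G0 library at B26 (29.4%, 5.87 times chance), B44 (61.6%, 4.03 times), B53 (50.7%, 11.4 times) and B118 (83.6%, 14.7 times). At B7, 30 min replicate 2 and 3 h shared 32.0% (14.6 times). Another 39 columns, labelled as chromosome 16 and 17 baits or 1.5 h, entered no comparison. Reads come from PCR and carry no molecular identifiers. A site was therefore also scored simply as captured (1 read or more). Labels name biological replicates without saying which cultures were shared between baits, so p-values measure the spread between these libraries only.

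One measurement touches every result from outside. Of the 54 libraries of the outside baits, 11 held 10 to 794 reads at the HindIII site next to B118 (2664 bp before it), and the other 43 held 0 to 6. In those 11 libraries a median of 52.9% of the sites within 250 kb of B118 were captured (36.8% to 79.3%), against a median of 6.90% (0.575% to 70.1%) in the other 43. Over the sites of the whole region the medians were 42.4% in the 11 and 6.48% in the 43. B118's own libraries captured 88.5% to 96.0% of the sites within 250 kb and a median of 84.9% of the sites of the whole region. The median of reads per captured site in the region, divided by that elsewhere on the chromosome, was 0.333 in the 11 libraries and 0.639 in the 43. The 11 libraries belonged to all 5 outside baits (2 of B87, 1 of B26, 2 of B7, 3 of B44 and 3 of B53). Whether material of the B118 libraries entered them was not tested. Results are therefore given with and without these libraries, and with and without the 4 bins of 500 kb around B118 (117000001 to 119000000) (both choices were made after seeing the data).

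The region is of middling composition. Its 11 bins of 500 kb had 40.1% to 49.6% GC (median 43.8%), against a median of 42.1% in the other 241 bins of the chromosome. HindIII sites numbered 102 to 170 per bin, with a median of 153 against 160 elsewhere. A bin held a median of 1 start of a protein-coding gene, against 2 elsewhere, and 24 protein-coding genes overlapped the region in all. Gene starts are most numerous in the last bins (5 and 6 per bin), the 4 bins after the one that holds the start of Wwox hold none but Maf, and the GC content is highest in the last bin, with Pkd1l2, Gcsh and Bcmo1.

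From outside, only part of the region was met in any 1 library. B87, the nearest bait (27.1 Mb), captured a median of 33.4% of the region's sites (1.04% to 69.5% over 10 libraries), and B53 captured 17.6% (3.43% to 61.1%, 11 libraries). B44 captured a median of 23.9% (3.91% to 42.4%), B26 6.54% (1.71% to 22.8%) and B7, the farthest, 4.40% (0.856% to 54.8%). These shares rise and fall with the number of captured sites in a library, so all libraries of a bait were thinned to 1 common depth, 682 captured sites at B87 up to 2193 at B44, and set against the number expected at that distance. The resulting log2 observed over expected is 0 where the region is met as often as its distance alone predicts.

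Relative to distance, the bait B53 met the region more often than expected in every library, and the gene-rich baits did not. Over 11 libraries of B53, which lies in a stretch with 0 protein-coding genes within 500 kb, the log2 observed over expected ran from 0.14 to 0.76 with a median of 0.31. The mean was 0.41 ± 0.23 (SD, n = 11), above 0 in 11 of 11 libraries (exact sign-flip permutation test, two-sided, adjusted p = 0.00488 over 5 baits). At B7, also with 0 genes nearby, the values ran from -0.16 to 0.75 (median 0.29) with a mean of 0.25 ± 0.29 (SD, n = 11), above 0 in 8 of 11 libraries (exact permutation, adjusted p = 0.0244). B44, which lies between genes with 8 of them within 500 kb, gave -0.06 to 0.47 (median 0.17), a mean of 0.19 ± 0.19 (SD, n = 11) and 9 of 11 libraries above 0 (exact permutation, adjusted p = 0.0244). The calls at B7 and B44 ended under several alternatives, such as an expected value that also used HindIII sites (0.19 and 0.12, exact permutation, adjusted p = 0.0842 each) and 250-kb bins (0.17 each, adjusted p = 0.154 at B7 and 0.0513 at B44).

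The other baits lie in introns, with 19 (B26) and 38 (B87) protein-coding genes within 500 kb. At B26 the region ran from -0.70 to 0.29 (median -0.31), with a mean of -0.24 ± 0.34 (SD, n = 11) and 3 of 11 libraries above 0 (exact permutation, adjusted p = 0.0586). At B87 it ran from -0.96 to 0.33 (median 0.00), with a mean of -0.13 ± 0.41 (SD, n = 10) and 5 of 10 libraries above 0 (exact permutation, adjusted p = 0.375). The libraries of B26 and B53 overlap only between 0.14 and 0.29, and the lowest library of all was one of B87.

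**Figure D1:**
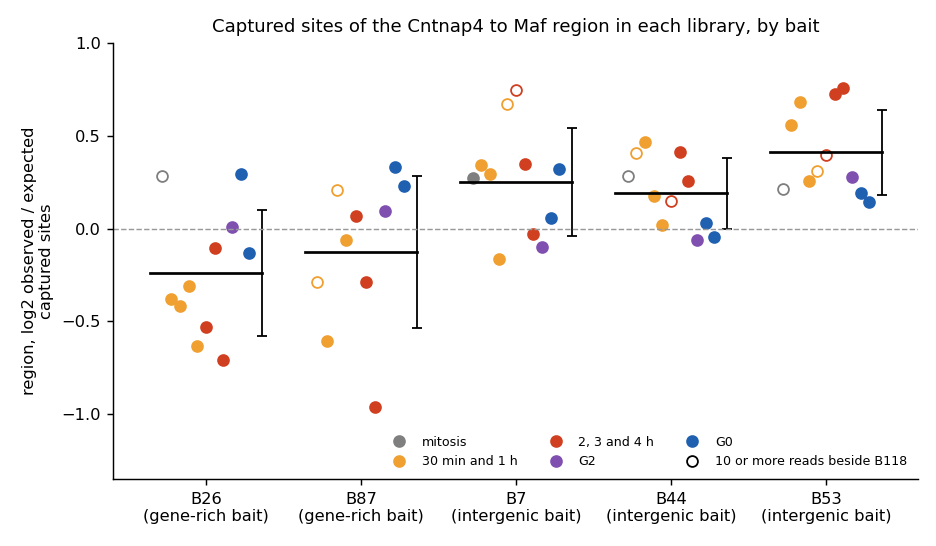
The plot gives log2 observed over expected captured sites of the whole region (vertical axis) for each library of the 5 outside baits (horizontal axis, gene-rich baits on the left), with the mean and SD beside each cloud and open circles for libraries with 10 or more reads beside B118. All 11 libraries of B53 lie above 0, and 3 of 11 of B26 do.

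Leaving out the 4 bins around B118 separated the baits further. Without them B26 was below 0 in all 11 libraries (mean -0.54 ± 0.28, SD, exact permutation, adjusted p = 0.00488) and B87 averaged -0.41 ± 0.66 (adjusted p = 0.0814, exact permutation, n = 10). B53 stayed at 0.41 ± 0.39 (SD, n = 11, exact permutation, adjusted p = 0.0244), while B7 averaged 0.02 (adjusted p = 0.866) and B44 0.05 (adjusted p = 0.735). The 4 bins were picked after their values were seen, so these p-values cannot decide a difference from 0. Without the libraries with reads beside B118, B53 had 0.45 (exact permutation, adjusted p = 0.0391, n = 8) and B26 -0.29 (adjusted p = 0.0488, n = 10). The calls at B7 (0.15, exact permutation, adjusted p = 0.0977, n = 9) and B44 (0.16, adjusted p = 0.117, n = 8) were lost, and B87 gave -0.15 (adjusted p = 0.422, n = 8).

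Pairwise, the order from low to high was B26, B87, B44, B7 and B53. Of 10 pairs, 7 differed at an adjusted p of 0.05 (permutation test over libraries, 100000 resamples), the largest being B26 minus B53 at -0.65 ± 0.12 (SE, adjusted p = 0.0009). B53 exceeded B87 by 0.54 ± 0.15 (adjusted p = 0.0026) and B44 by 0.22, given as B44 minus B53 of -0.22 ± 0.09 (adjusted p = 0.0393). The pairs that did not pass were B26 minus B87 at -0.11 ± 0.17 (adjusted p = 0.554), B7 minus B44 at 0.06 ± 0.11 (adjusted p = 0.567) and B7 minus B53 at -0.16 ± 0.11 (adjusted p = 0.21). Single labels decided some of the pairs: the count fell to 4 without 30 min replicate 1, 1 h replicate 2, 2 h, 3 h or 4 h, each left out alone, and was 3 without 1 h replicate 2 and 2 h together.

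Taken as kinds of bait, the gene-rich baits (B26 and B87) averaged -0.21 ± 0.32 in the region and the other 3 baits, which lie between genes (intergenic), averaged 0.29 ± 0.18 (SD, n = 10 labels each). The difference was -0.49 on the log2 scale (permutation test, two-sided, p = 0.00036), and the gene-rich baits were higher in 2 of 10 labels. With the label as a replicate block, p was 0.0176 (exact sign-flip permutation). Both tests are over labels of these same baits and do not measure the spread between baits. They cannot say whether other baits of either kind would differ. B44 has 8 coding genes within 500 kb where B7 and B53 have 0, and without B44 the difference was -0.55 (permutation p = 0.00028, higher in 1 of 10 labels). Without the 4 bins around B118, picked after their values were seen, the difference was -0.68 (permutation p = 0.00019, which therefore decides nothing). Without the libraries with reads beside B118 it was -0.45 (exact permutation, p = 0.0281, n = 6 labels).

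Bin by bin, 5 of the 6 bins that differed lay between Adat1 and the start of Wwox. Between the kinds of bait, 60 of 208 bins of the chromosome were higher (28.8%) and 77 lower (37%) from the gene-rich baits (limma, adjusted p under 0.05). In the region 0 of 11 bins were higher and 6 were lower (54.5%). These calls too rest on labels of the same baits, so they hold for these baits only. The bin of Cntnap4, which encodes a neuronal adhesion protein of the neurexin superfamily, averaged -0.84 ± 0.67 from the gene-rich baits and 0.15 ± 0.31 from the others (SD, n = 10 labels), a difference of -0.99 ± 0.22 (SE, limma, adjusted p = 0.000881), lower in 9 of 10 labels. The coding-gene desert next to it (115500001 to 116000000) averaged -0.95 ± 0.62 and 0.02 ± 0.46 (difference -0.97 ± 0.23, limma, adjusted p = 0.00144). Also lower were the bin of Adat1, Kars and Terf2ip, which encode a tRNA deaminase, the lysyl-tRNA synthetase and a telomere protein (-0.87, adjusted p = 0.00101), and that of Vat1l, Nudt7, Clec3a and the start of Wwox (-0.72, adjusted p = 0.00732).

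The remaining calls were the bin of Adamts18, a secreted metalloprotease gene, with Mon1b and Syce1l (-0.55, limma, adjusted p = 0.0372), and the bin of Dynlrb2, Cdyl2, Cenpn and Atmin on the other side of B118 (-0.69, adjusted p = 0.00732). The bin of Maf went the other way without passing, at 0.33 ± 0.37 from the gene-rich baits and 0.06 ± 0.43 from the others (difference 0.27 ± 0.18, SE, limma, adjusted p = 0.185). Without the libraries with reads beside B118, 3 of 11 bins of the region were lower and 1 was higher. Over the chromosome 54 of 208 bins were then lower and 44 higher.

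**Figure D2:**
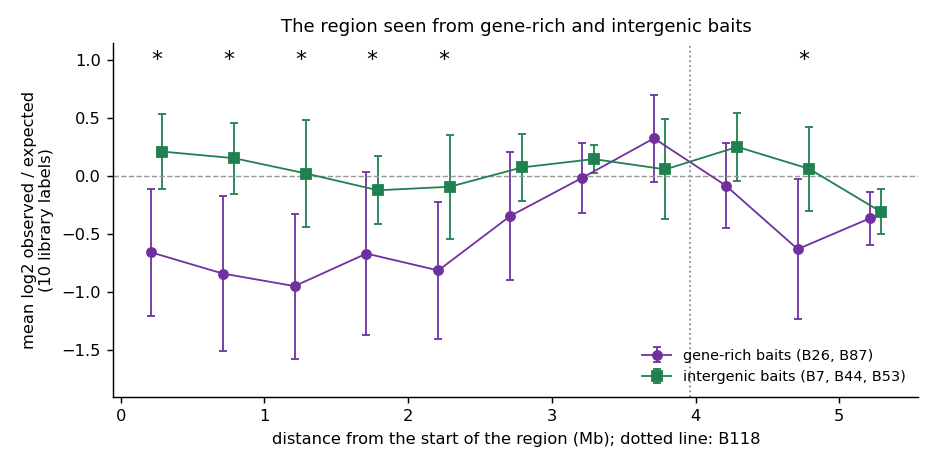
Mean log2 observed over expected (vertical axis, bars are SD over 10 library labels) of the gene-rich baits (B26, B87) and of the intergenic baits (B7, B44, B53) is plotted against distance from the start of the region in Mb, with stars for bins that differ at an adjusted p under 0.05 (limma) and a dotted line at B118. The lines are apart from Adat1 to the start of Wwox and meet in the bins around Maf.

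Against their own expected values, few single bins of the region stood out from the chromosome. Over the 5 baits 104 of 1220 bins of the chromosome were higher than expected (8.52%) and 422 were lower (34.6%) in limma at an adjusted p of 0.05. The region had 4 of 55 higher (7.27%) and 14 of 55 lower (25.5%), both below the chromosome's shares. Thinned libraries held only 4.9 (B7) to 101.4 (B44) captured sites over all 11 bins. At such counts the mean of single-bin log2 values lies below the log2 value of the summed bins. At B53 the region as a whole had 0.41, while its bins averaged -0.40 to 0.42. A bin called lower is thus not by itself met less often than expected. All 4 higher ones touched the stretch from Wwox to Dynlrb2. From B44 the bin of the second part of Wwox (117500001 to 118000000) averaged 0.39 ± 0.26 (SD, adjusted p = 0.00218, above 0 in 10 of 11 libraries) and the bin of Maf 0.43 ± 0.43 (adjusted p = 0.0105, 10 of 11). The desert after Maf (118500001 to 119000000) averaged 0.54 ± 0.52 from B7 (adjusted p = 0.00913, 9 of 11), and the bin of Maf averaged 0.37 ± 0.26 from B87 (adjusted p = 0.039, 9 of 10). All 4 lie in the stretch around B118. Without the libraries with reads beside B118 the region had 2 of 55 bins higher, against 64 of 1220 over the chromosome (limma).

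B26 gave 8 of the 14 lower bins, B87 gave 4, and B7 and B53 gave 1 each. From B26 the bin of Cntnap4 ran from -3.35 to -0.34 (median -0.82) with a mean of -1.11 ± 0.87 (SD, n = 11, limma, adjusted p = 0.00208), below 0 in every library. The last bin, with Pkd1l2, Gcsh (a subunit of the glycine cleavage system) and Bcmo1 (a carotene oxygenase gene), was the lowest of the region for all 3 intergenic baits. This bin also had the fewest HindIII sites of the region, 102 against a median of 153, and the values are not corrected for site number. It averaged -0.43 ± 0.53 from B7 (adjusted p = 0.0282), -0.21 ± 0.34 from B44 (adjusted p = 0.0921) and -0.40 ± 0.54 from B53 (adjusted p = 0.0465). For B53 it was the sole bin of the region called in either direction, while the other 10 bins averaged -0.18 (the bin of Maf) to 0.42.

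Within the region, the bins met more often differed by bait in GC content. Across the 11 bins the Spearman correlation of the mean profile with GC was 0.59 at B87, 0.55 at B26, 0.05 at B44, -0.22 at B7 and -0.72 at B53. These are descriptions of 11 neighbouring bins that share libraries and a position on the chromosome. The number of HindIII sites per bin correlated at 0.71 with the profile of B7 and 0.63 with that of B44.

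**Figure D3:**
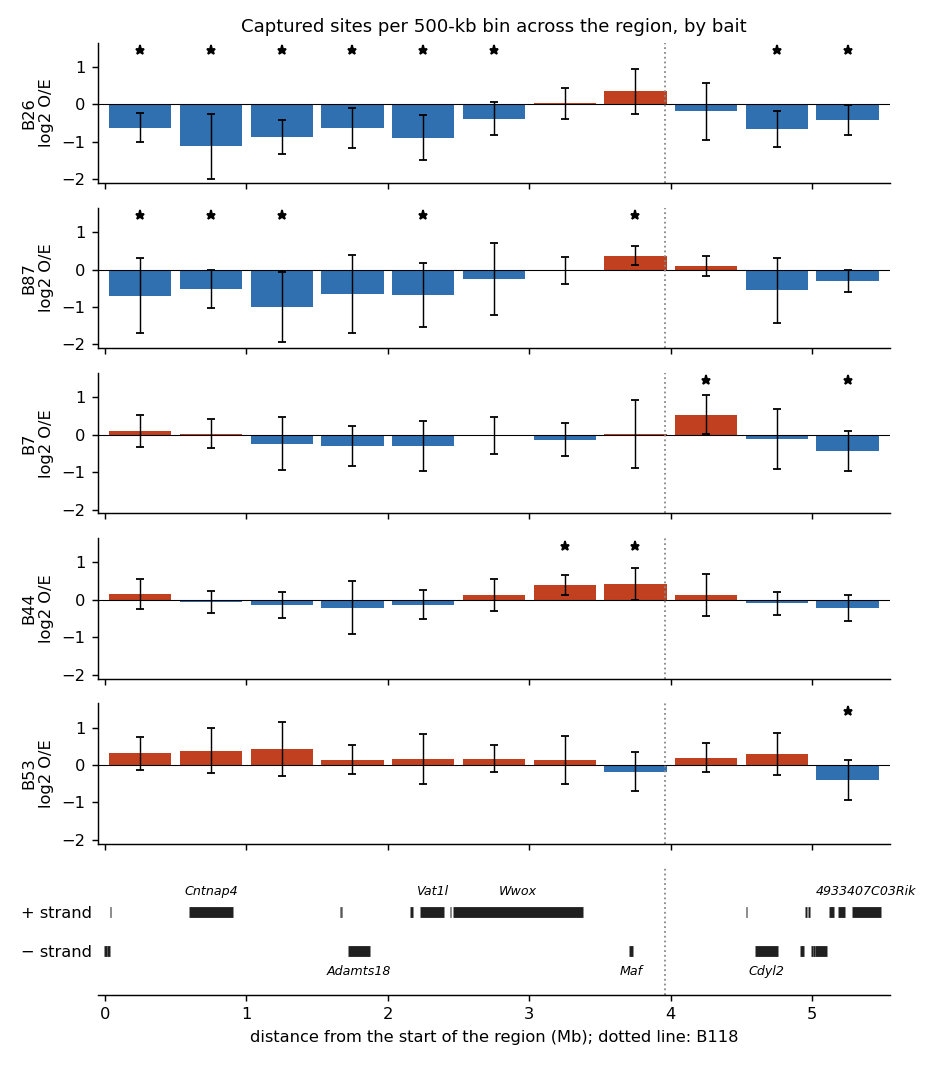
Each panel gives 1 outside bait, with the mean log2 observed over expected captured sites per 500-kb bin (vertical axis, bars are SD over libraries) against distance from the start of the region in Mb, gene names at their bins and stars for bins that differ from 0 at an adjusted p under 0.05 (limma). B26 and B87 dip below -0.5 around Cntnap4 and come up at Maf, and B53 stays above 0 up to Wwox.

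The bins around B118 stood above the rest of the region from most outside baits. The 4 bins from 117000001 to 119000000 exceeded the other 7 by 0.59 at B26 (in 11 of 11 libraries), 0.56 at B87 (10 of 10), 0.28 at B44 (10 of 11) and 0.25 at B7 (8 of 11). At B53 the difference was -0.06 (above 0 in 5 of 11). This stretch was picked after its values were seen and carries no test. Without the libraries with reads beside B118 the differences were 0.57 at B26 (10 of 10), 0.60 at B87 (8 of 8), 0.17 at B44 (7 of 8), 0.22 at B7 (6 of 9) and -0.10 at B53 (3 of 8). This left out 1 library at B26, 2 each at B87 and B7, and 3 each at B44 and B53. The libraries kept held up to 6 reads at the site beside B118 and captured up to 70.1% of the sites within 250 kb. The part of B118 material in these differences was not tested.

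Set against its neighbours, the region as a whole did not stand apart in the mean over the 5 baits. Averaged over the 5 baits it exceeded the 5.5 Mb before it by 0.03 ± 0.18 (SD, n = 10 labels, exact sign-flip permutation, adjusted p = 0.629) and the 5.5 Mb after it by 0.08 ± 0.18 (adjusted p = 0.359, exact permutation). Without the 4 bins around B118 both differences changed sign, to -0.20 ± 0.20 (exact permutation, adjusted p = 0.00781, above 0 in 1 of 10 labels) and -0.13 ± 0.22 (adjusted p = 0.0273, above 0 in 3 of 10). Those bins were picked after their values were seen and were higher than the rest at most baits. A lower remainder follows from that choice, so these p-values cannot decide whether the rest lies below its flanks. Without 4 h alone the difference from the 5.5 Mb after the region was 0.13 and passed (exact permutation, adjusted p = 0.00781). Single baits went different ways, which the mean does not show. At B53 the 4 h library had 0.76 in the region, 0.03 before it and -0.65 after it. G0 replicate 1 of B53 had 0.19, 0.06 and -0.08. At B87 the same 3 values were -0.96, 0.69 and 1.26 in the 4 h library and 0.33, 0.11 and 0.19 in G0 replicate 1. Differences from the flanks were not tested for single baits.

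Single sites give the finest view. Of the region's 1635 sites, 154 (9.42%) were captured in none of the 54 libraries of the outside baits, against 16% of 31453 other sites of the chromosome more than 2 Mb from every bait. The median site of the region was nevertheless captured in fewer libraries, 11 against 16, and the most often captured in 26 against 47. Without the 11 libraries with reads beside B118 the shares were 11% and 17.5% and the medians 6 and 10. These counts are not corrected for distance. The region lies 27.1 to 107.3 Mb from the outside baits, while the other sites can lie as near as 2 Mb to one. The distance to the nearest DpnII cuts differed between capture classes, though not in order. The 51 sites captured in 21 or more libraries lay a median of 179 bp after one DpnII site and 138 bp before the next, and the 861 captured in 11 to 20 lay 226 and 216 bp away. The medians were 338.5 and 342.5 bp for the 362 sites captured in 6 to 10 libraries, 607 and 599 bp for the 207 captured in 1 to 5, and 439.5 and 342 bp for the 154 never captured. The median GC content of the surrounding bases ran from 43.2% to 44.2% over these classes.

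Of the 10 sites captured most often, 6 lay within 29265 bp of B118, among them the 3 printed above. Without the 11 libraries with reads beside B118 this cluster thinned: site 118477457 was then captured in 15 of 43 libraries and ranked 13 with ties counted against it, site 118449402 in 14 (rank 28) and site 118433775 in 13 (rank 49). Site 118430058 was captured in 26 of 54 libraries (6 of B87, 7 of B26, 3 of B7, 5 of B44 and 5 of B53) and in all 10 of B118. Without the 11 libraries it was captured in 16 of 43 (rank 6), as was site 118446766, and site 118483676 in 17 of 43, which no site of the region exceeded. Outside this cluster were site 116537845 before Nudt7, a peroxisomal coenzyme A hydrolase gene (119612 bp away, 25 libraries), and site 119835591 in an intron of 4933407C03Rik (24 libraries). The other members of the list were an intronic site of Wwox, 117472974, and site 118235639, which lies 3945 bp outside Maf at its 5′ end (24 libraries each). The count for the site near Maf fell to 13 of 43 libraries without the 11.

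Which of the long genes was captured more differed by bait. From B87 the mean share of a gene's sites that was captured was 34.5% in Wwox (277 sites), 25.9% in Cntnap4 (99 sites), 30.6% in Adamts18 (50 sites) and 40% in Maf (5 sites). From B53 the shares were 22.8% in Wwox, 27.5% in Cntnap4, 25.5% in Adamts18 and 20% in Maf. From B26 they were 11.6% in Wwox and 5.23% in Cntnap4, from B44 21.1% and 17.3%, and from B7 12.1% and 11.5%. Cntnap4 was thus above Wwox at B53 and below it at the other baits. These shares are not corrected for distance or depth.

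Between the first hour and 2 to 4 h, reads in the region as seen from outside gave no call in any fit but one. For 2 to 4 h minus the first hour, edgeR's quasi-likelihood test on reads per 500-kb bin called 0 of 1461 bins of 6 baits (0%), with 28 at an unadjusted p under 0.05 (1.92%). DESeq2 also called 0, with 54 at an unadjusted p under 0.05 (3.7%). In the region 0 of 55 bins were called and 0 had an unadjusted p under 0.05 with either tool. Libraries of 2 to 4 h and of the first hour did not overlap in 0 of the 55, against 2.67% of all bins. The region's median log2 fold change was 0.35, against -0.04 over all bins. By bait the medians were -0.56 at B87 (4 of 11 bins higher), 0.35 at B26 (8 of 11), 0.64 at B7 (6 of 11), 0.69 at B44 (10 of 11) and 0.64 at B53 (10 of 11). The exception was edgeR without 2 h, which called 1 of the 55 bins lower (25 of 1460 over all bins). In that fit 5 of the 55 had an unadjusted p under 0.05 (230 of 1460), and 14 did not overlap (357 of 1460). Without 1 h replicate 2 instead, all 3 counts for the region were 0. Labels 1 h replicate 2 and 2 h, which shared sites on other chromosomes, stand on opposite sides of this comparison.

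For G0 minus 2 to 4 h, edgeR again called 0 of 1461 bins (0%), while 457 (31.3%) had an unadjusted p under 0.05. In the region 0 of 55 bins were called and 25 (45.5%) had an unadjusted p under 0.05. The tool mattered here: DESeq2 called 229 bins lower (15.7%) and 132 higher (9.03%), and in the region 21 of 55 lower (38.2%) and 0 higher. Without 2 h edgeR called 11 bins of the region, without 1 h replicate 1 it called 5, and on captured sites in place of reads it called 8. The region's median log2 fold change was -1.91, against -0.21 over all bins, and G0 libraries did not overlap those of 2 to 4 h in 37 of 55 bins (67.3%), against 60.8% of all bins.

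Medians by bait had both signs, and the difference between baits was not tested on reads. The median log2 fold change of reads, G0 minus 2 to 4 h, was -2.49 at B26, -2.39 at B7, -2.33 at B44 and -1.99 at B53, with 43 of the 44 bins of these baits lower, and it was 0.94 at B87 with 10 of 11 bins higher. These reads are not corrected for distance.

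Set against distance in libraries thinned to 1 common depth, the region had differences of opposite sign at B53 and B87, which did not pass a test. At B53 the log2 observed over expected was 0.19 and 0.14 in the G0 libraries, against 0.39, 0.72 and 0.76 at 2, 3 and 4 h. At B87 it was 0.33 and 0.23 in the G0 libraries, against 0.07, -0.29 and -0.96 at 2, 3 and 4 h. B44 gave 0.03 and -0.05 in G0, against 0.15, 0.41 and 0.26 at 2, 3 and 4 h. At these 3 baits the groups do not overlap, with differences of -0.46 at B53, 0.67 at B87 and -0.28 at B44 (exact permutation, p = 0.2 each, where 2 against 3 libraries cannot go below 0.1). At B26 the difference was 0.53 and at B7 -0.16, with overlapping libraries (exact permutation, p = 0.3 and 0.7). B26 thus had fewer reads in G0 and a higher observed over expected, and neither passed its test.

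For 2 to 4 h minus the first hour the differences of the region were small against the spread, from -0.20 at B87 to 0.17 at B53 (exact permutation, p = 0.286 to 0.971, where 3 against 4 libraries cannot go below 0.0286). Labels 1 h replicate 2 and 2 h, with their shared content, again stand on opposite sides. At B53 the first-hour libraries had 0.56 and 0.68 at 30 min and 0.26 and 0.31 at 1 h. At B87 they had -0.29 and -0.61 at 30 min and 0.21 and -0.06 at 1 h. Thus the 30 min libraries lay nearer to those of 3 and 4 h than the 1 h libraries did at both baits.

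Across labels the values of B53 and B87 were mirror images. Over 10 labels Pearson's r was -0.913 (permutation p = 0.00018, adjusted p = 0.0018 over 10 pairs of baits) and Spearman's rho was -0.939 (adjusted p = 0.0028). Without 3 h and 4 h, the labels farthest from the median of B53, r was -0.951, and without 1 h replicate 2 and 2 h it was -0.923. B44 and B53 moved together over 11 labels (r 0.768, permutation adjusted p = 0.0438; rho 0.618, adjusted p = 0.0957), with r 0.614 without 3 h and 30 min replicate 2. The other 8 pairs had r from -0.681 to 0.618 and adjusted p for r of 0.0966 or more (permutation).

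Depth moved with both values. Against the log10 number of captured sites beyond 2 Mb, the region gave r -0.820 at B53 (permutation adjusted p = 0.0164 over 5 baits; rho -0.591, adjusted p = 0.197) and r 0.775 at B87 (adjusted p = 0.0258; rho 0.588, adjusted p = 0.197). Without 3 h and 4 h, the libraries of fewest sites, these were -0.597 and 0.576. Libraries had been thinned to the same number of sites, and the part of depth in the relation was not tested.

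B118 itself sits in the desert after Maf and read its own domain at close range. Its 10 libraries captured a median of 84.9% of the region's sites (55.6% to 91.8%). Of its chromosome 8 reads more than 20 kb from the bait, 54.4% ± 15.6 (SD, n = 10) fell in the region. The share was 54%, 72.4% and 75.5% in the libraries of 2, 3 and 4 h, against 67.9% and 69.8% at 30 min and 39.3% and 42.1% at 1 h. It was 37.7% and 37.8% in G0 and 47.0% in G2. The highest shares were those of 4 h and 3 h, the lowest those of G0, and the 1 h libraries lay with G0 and G2 and away from 30 min. These labels did not all differ in content. Of the sites of G0 replicate 2 on other chromosomes, 81.5% were also in 1 h replicate 2 (15.1 times chance). The first technical replicate of 2 h held 83.6% of them, and 1 h replicate 1 held 7.14% (2.12 times chance).

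The mean share of 2 to 4 h was 67.3% ± 11.6 (SD, n = 3), against 54.8% ± 16.3 in the first hour (SD, n = 4; exact permutation, p = 0.286, smallest possible 0.0286), with overlapping libraries. In G0 it was 37.7% ± 0.116 (SD, n = 2), against 67.3% ± 11.6 at 2 to 4 h (exact permutation, p = 0.2, smallest possible 0.1), without overlap. Total reads were lowest at 3 h and 4 h, with 2163015 and 1073125, against 2733464 to 12536212 in the others. Counted as captured sites, the share of the region was 13.0% ± 6.92 (SD, n = 10).

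**Figure D4:**
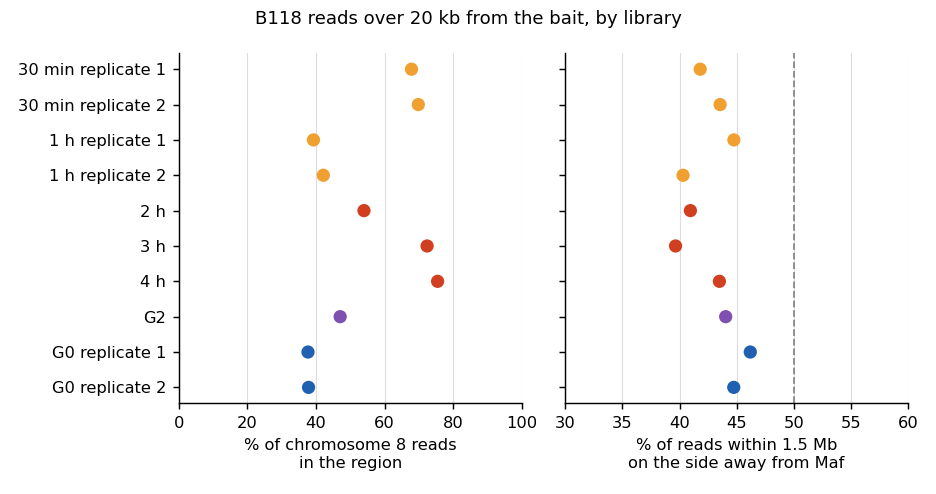
The share of B118's chromosome 8 reads more than 20 kb from the bait that lie in the region, and the share of reads 20 kb to 1.5 Mb away on the Maf-distal side, are given in percent (horizontal axes) for each of 10 libraries, 1 per line by label. The own-domain share runs from 37.7% in G0 to 75.5% at 4 h, and every distal share lies below 50%.

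Beyond 500 kb, contacts of B118 leaned to the side of Maf and Wwox. Of the reads 20 kb to 1.5 Mb from the bait, 39.7% to 46.2% lay at higher coordinates than the bait, away from Maf, below 50% in 10 of 10 libraries. The mean deviation from 50% was -7.05 percentage points ± 2.16 (SD, n = 10; exact sign-flip permutation, two-sided, p = 0.00195, the smallest possible). HindIII sites are themselves uneven, with 46.6% of them on that side, and against this share, a comparison added after seeing the data, the deviation was -3.65 percentage points ± 2.16 (exact permutation, p = 0.00195). By distance, the share on the Maf-distal side was 42.5% ± 4.64 at 20 to 100 kb (SD, n = 10; exact permutation, adjusted p = 0.0026 over 4 distances) and 52.7% ± 3.11 at 100 to 500 kb, above 50% in 7 of 10 libraries (adjusted p = 0.0254). It was 29.9% ± 12 at 500 to 1000 kb and 26.9% ± 13.7 at 1000 to 1500 kb (exact permutation, adjusted p = 0.0026 each), below 50% in all 10 libraries.

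The nearer distances followed the number of HindIII sites. At 20 to 100 kb the distal side held 24 sites against 33 (42.1%), and the share of reads differed from this by 0.41 percentage points (exact permutation, adjusted p = 0.785). At 100 to 500 kb it held 139 against 120 (53.7%), a difference of -0.99 (adjusted p = 0.458). At 500 to 1000 kb it held 131 against 160 (45.0%), a difference of -15.1, and at 1000 to 1500 kb 111 against 151 (42.4%), a difference of -15.4 (exact permutation, adjusted p = 0.00781 each, below the site share in 10 and 9 of 10 libraries). The share of sites captured on the distal and the Maf side was 99.2% and 95.2% at 20 to 100 kb, and 90.5% and 93.0% at 100 to 500 kb. It was 78.2% and 93.3% at 500 to 1000 kb, and 79.6% and 92.1% at 1000 to 1500 kb.

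By gene, most of the own-domain reads fell in the desert that holds the bait. The stretch between Maf and Dynlrb2 (118231695 to 119028914, 276 sites) took 58.4% ± 6.97 of them (SD, n = 10). Wwox (116963555 to 117876608, plus strand, 277 sites) took 14.5% ± 2.77, and 92.5% of its sites were captured. The stretch between Wwox and Maf took 9.01% ± 1.35, and Maf itself (118206842 to 118231694, minus strand, 5 sites, all captured in all libraries) took 0.611% ± 0.194. The part from Dynlrb2, a dynein light chain gene, to the end of the region (227 sites) took 6.04% ± 3.02. The part before Wwox (749 sites) took 11.5% ± 7.37, which was the largest SD of these stretches, while the stretch between Maf and Dynlrb2 had the widest range (48.2% to 68.1%, against 3.27% to 21.4%).

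Relative to distance, Wwox stood high and Cdyl2 low. In reads per bin of 100 kb within 2 Mb of B118, the highest were 3 neighbouring bins in the first part of Wwox. The bin from 117009323 to 117109322 ran from 0.70 to 2.76 (median 1.13) with a mean log2 observed over expected of 1.47 ± 0.81 (SD, n = 10). The next toward Maf averaged 1.13 ± 0.66, and the one before, with the end of Clec3a and the start of Wwox, averaged 0.94 ± 0.64. All were above 0 in 10 of 10 libraries.

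The lowest bin, 119109324 to 119209323 in Cdyl2, a chromodomain protein gene, ran from -3.28 to -0.63 (median -1.09), with a mean of -1.51 ± 0.98 and 0 of 10 libraries above 0. The bin from 119509324, with Gcsh and Pkd1l2, averaged -0.85 ± 0.53 (0 of 10 above 0). These low bins on the distal side had 19 and 21 HindIII sites and the 3 high ones 32 to 34, and the observed over expected takes out distance but not site number. The expected value came from 1 fit over both sides of the bait. High values on the Maf side and low ones at like distances on the distal side are therefore not separate results.

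**Figure D5:**
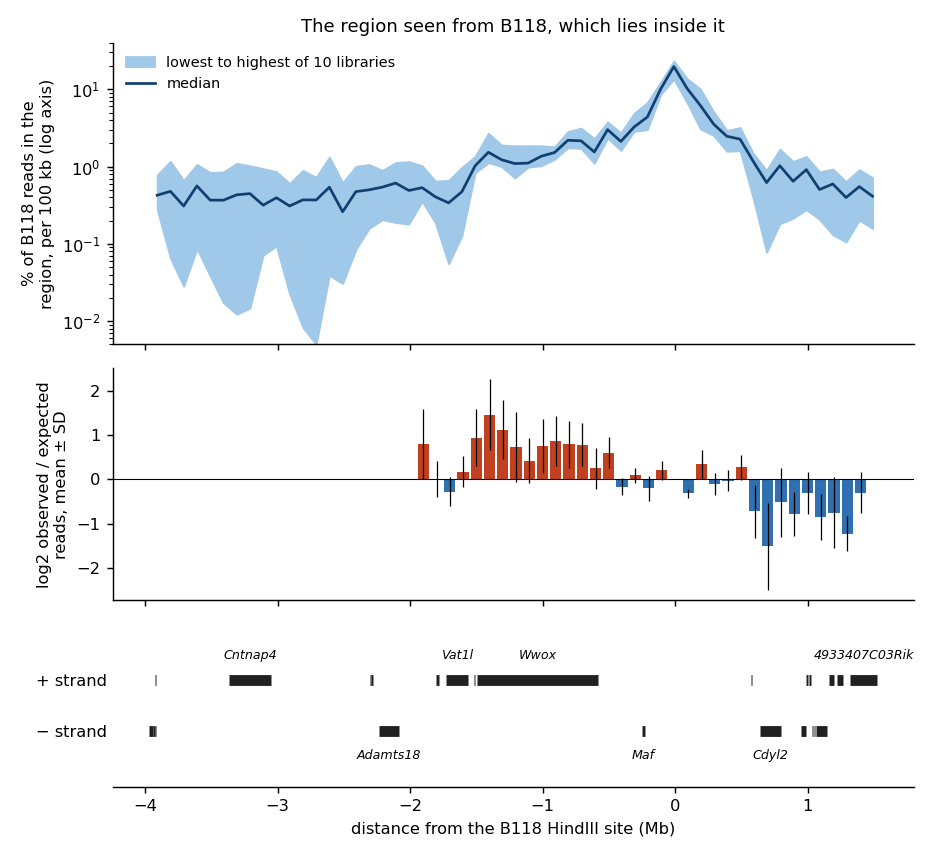
Against distance from B118 in Mb, the upper panel gives the percent of its region reads per 100 kb (log axis, line for the median and band for lowest to highest of 10 libraries), the middle one the mean log2 observed over expected reads within 2 Mb (lines are SD over libraries) and the lower one the genes. Bins over Wwox lie above 0, and bins from Dynlrb2 to the end of the region lie below 0.

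Within 2 Mb of B118, beyond the windows next to it, the largest mean losses of reads between neighbouring windows of 100 kb lay at the start of Wwox and at Dynlrb2. Going outward, reads per HindIII site fell by 0.94 ± 0.91 on the log2 scale (SD, n = 10, lower in 9 of 10 libraries) between the window from 116900001 and that from 116800001, and by 0.66 ± 0.48 (10 of 10) between the window from 117000001 and that from 116900001. On the other side they fell by 0.94 ± 0.90 (9 of 10) between the window from 118900001 and that from 119000001, which holds Dynlrb2 and the end of Cdyl2. These steps were picked by size and are not tested.

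In time, no near bin of B118 in the region was called with all libraries in the fit. For 2 to 4 h minus the first hour, edgeR called 0 of 228 near bins of the 6 baits (0%), with 10 at an unadjusted p under 0.05 (4.39%), and 0 of the 33 bins of B118 in the region at either threshold. DESeq2 called 0 of the 33 as well, with 0 at an unadjusted p under 0.05 (7.02% of all near bins). The libraries did not overlap in 0 of the 33, against 3.51% of all near bins. In edgeR without 2 h, 4 of the 33 did not overlap (57 of 228 near bins) and 1 had an unadjusted p under 0.05 (48 of 228). Without 1 h replicate 2 instead, both counts for the 33 were 0. For G0 minus 2 to 4 h, edgeR called 18 of 228 near bins lower (7.89%) and 4 higher (1.75%). Of B118's 33 bins in the region it called 0, with 2 at an unadjusted p under 0.05 (29.4% of all near bins), and DESeq2 called 0, with 6 at an unadjusted p under 0.05 (39% of all near bins). Without 30 min replicate 1, whose spread enters the same fit, edgeR called 3 of the 33 lower, against 18 of 228 near bins. In that fit 12 of the 33 had an unadjusted p under 0.05, against 74 of 228. The libraries of G0 and 2 to 4 h did not overlap in 28 of the 33 bins (84.8%), against 64.5% of all near bins.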

How the data were processed

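The authors deposited 1 table of raw counts of reads at each HindIII site, and its positions matched the HindIII sites of mm9. BWA 0.5.9 and mm9 are named in the submitters' processing notes. How reads were filtered is not given in the sources used here. Counts were used as deposited, after the technical replicates of 2 h were summed. The 39 columns of chromosome 16 and 17 baits and 1.5 h were left out of all comparisons, which are between chromosome 8 baits at the other times. The region, gene lists and tests were chosen with earlier results of these data known.

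Baits and genes were placed on the supplied mm9 sequence and its GENCODE annotation (1-based coordinates). Expected captured sites came from a lowess (span 0.5) of share on log distance over 500-kb bins more than 2 Mb from the bait, with a pseudocount of 0.5, after thinning a bait's libraries to the same number of captured sites (10 draws averaged). B118's surroundings were read in 100-kb bins, leaving out 50 kb on each side. Bins were tested with limma 3.58.1 on log2 observed over expected and, on reads, with edgeR 4.0.16 (filterByExpr, TMM, robust glmQLFit, glmQLFTest), with DESeq2 1.42.0 as an alternative (R 4.3.3). P-values of bins were adjusted by Benjamini-Hochberg across baits in 1 family, at 0.05. Single values were tested by permutation over libraries or labels (Python 3.11.15, numpy 2.4.6, scipy 1.17.1, pandas 2.3.3, statsmodels 0.14.6), with all regroupings where a group held under 10 values and in sign-flip tests, and 100000 resamples otherwise. The scripts were tested on simulated data. Named were all 11 bins with their gene starts, the 10 sites captured in most libraries (sequences for 3), and the 3 highest and 3 lowest near bins of B118 in the region, of which 1 is not reported here.

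The labels share replicate numbers. Deviations of the region from the bait means correlated between baits from -0.913 (B53 and B87) to 0.861 (B44 and B53). Libraries of 1 label thus did not vary independently across all baits. The main tests were unpaired because no label says that cultures were shared, and they leave this dependence out. The label as a block is given as an alternative. Alternatives were reads or all captured sites, other bins, spans, pseudocounts and scalings, the replicate block and libraries left out.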

Additional observations from a re-analysis of the deposited data

Results flagged for a closer look

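In the first hour, B118's library of 30 min replicate 2 captured 62.3% of the region's sites, apart from the other 3 of its group. The region minus the 5.5 Mb after it was -0.36 in the label 4 h, apart from the other 9 labels. Among the 15 groups examined this way, chance sets a library apart in about 1 in 20.

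The change of the region in G0 minus 2 to 4 h differed in direction between baits. It was lower at B53 than at B87 by -1.13 on the log2 scale (exact permutation, p = 0.02, adjusted p = 0.2 over 20 pairs and comparisons) and lower at B44 than at B87 by -0.96 (exact permutation, p = 0.03, adjusted p = 0.2). Neither passed the correction.

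Among the 39 columns left out, the one labelled B48 4 h (a chromosome 16 bait) held 1274495 reads in the region, 51.3% of its chromosome 8 reads, at 1460 sites. Of all its reads, 15.5% lay within 100 kb of B118. The 39 columns captured a median of 47 sites of the region (9 to 1460), which was a median of 4.29% of their chromosome 8 sites, against 4.14% if these were spread evenly. The cause was not tested.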

How the results depend on the processing

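Of 398 alternative values computed, 337 kept direction and side of the threshold. With an expected value that also used HindIII sites, B7 gave 0.19 and B44 0.12 (both calls lost), B26 -0.33 (then called), the differences from the flanks -0.059 before and -0.11 after the region, and 0 bins were called higher. With 250-kb bins the values were 0.17 at B7, 0.17 at B44 (both lost) and -0.0122 for the flank before, with 4 pairs of baits, 7 bins higher, 36 lower, and 11 lower between kinds of bait. A lowess span of 0.3 gave -0.26 at B26 (then called) and 4 pairs. Reads gave 0.11 at B44 (lost), 4 bins lower and 3 lower between kinds. All captured sites without thinning gave -0.000797 for the flank before, 11 bins higher and 6 lower. A pseudocount of 2 gave 9 higher and 9 lower. Without 1 h replicate 2 and 2 h, B7 gave 0.15 and B44 0.21 (both lost), 3 pairs passed and 4 region bins were called in G0. In that G0 comparison 72 of all 1459 bins were called higher and 48 lower. Without 3 h and 4 h, B7 gave 0.27 and B44 0.16 (both lost), the flank after 0.11 (then called) and 4 pairs passed. Of the alternatives added after seeing the data, leaving out the 4 bins around B118 gave 0.0192 at B7 and 0.0456 at B44 (both lost), -0.54 at B26 (then called), -0.20 and -0.13 for the flanks and 1 bin higher. Leaving out the libraries with reads beside B118 gave 0.15 at B7 and 0.16 at B44 (both lost), -0.29 at B26 (then called), -0.00941 for the flank before, 2 bins higher, and 1 higher and 3 lower between kinds. For G0 minus 2 to 4 h, read totals in place of TMM called 1 region bin, against 53 lower and 7 higher of all 1461 bins. Captured sites called 8 region bins and DESeq2 21. As captured sites the own-domain share was 13.0%. Except where the setting itself removes libraries or bins, the cause was not tested.

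With each library left out in turn, the region ran from 0.20 to 0.29 at B7, -0.29 to -0.19 at B26, 0.16 to 0.22 at B44, 0.37 to 0.44 at B53 and -0.18 to -0.03 at B87. The difference between kinds ran from -0.57 to -0.42, the flanks from 0.01 to 0.07 and 0.06 to 0.13, the pairs from 4 to 7, bins higher from 3 to 6 and lower from 9 to 14 (9 without 30 min replicate 1), and bins lower between kinds from 5 to 8. Region bins called ran from 0 to 1 (2 to 4 h) and 0 to 11 (G0, 11 without 2 h and 5 without 1 h replicate 1), and near bins of B118 from 0 to 3 (G0, 3 without 30 min replicate 1). The own-domain share ran from 52.0% to 56.2%, its stage differences from 7.34 to 19.2 and -36.2 to -25.5 percentage points, and the distal deviation from -7.41 to -6.68.

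With the library label as a replicate block, the difference between kinds was -0.49 (exact sign-flip permutation, p = 0.0176, n = 10 labels), 5 pairs of baits passed, and 5 bins were lower and 0 higher between kinds. B7 minus B87 and B44 minus B87 were the pairs lost. The replicate number as a block in edgeR left 0 region bins called in both comparisons. The numbers are shared names, and no label says that they pair cultures. Libraries of 3 h and 4 h, with the fewest captured sites, limit the depth to which all libraries of a bait were thinned.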
